A study of Homo sapiens with 21 samples.

Results

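MALAT1, NEAT1, TUG1, MEG3, PVT1, GAS5, SNHG1, SNHG5, SNHG8 and SNHG12 are long noncoding RNAs that either act in the nucleus or carry small nucleolar RNAs (snoRNAs) in their introns. They were found by symbol in a table of expression values, where all 10 were listed and varied between libraries, among 19694 genes that varied. The table came from RNA-seq of hTERT-HPNE cells, a nontransformed pancreatic line immortalized with telomerase, which was grown with EGF and puromycin. Cells were left untreated, or were given 300 μM H2O2 as an oxidative stress or 400 ng/ml neocarzinostatin (NCS), a radiomimetic drug that breaks DNA, and were harvested 4, 8 or 24 h later. Each of the 7 groups had 3 biological replicates, 21 libraries in all. The untreated cells were harvested at hour 0 alone and the medium was replaced at treatment, so in a comparison with untreated cells the effect of the agent and that of the time in fresh medium cannot be told apart. Comparisons of H2O2 with NCS at the same hour do not have this limit.

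Long noncoding RNAs of the nucleus work as RNA rather than through a protein. NEAT1 is the scaffold of paraspeckles, bodies that hold RNA-binding proteins in the nucleus, and MALAT1 gathers at nuclear speckles, where splicing factors are stored. TUG1 and MEG3 have been tied to gene silencing and to p53 respectively, MEG3 being expressed from the maternal copy of an imprinted region, and PVT1 lies beside the MYC oncogene. snoRNA host genes are transcribed for their introns, from which snoRNAs that guide the modification of ribosomal RNA are cut. The spliced remainder of many hosts is exported and destroyed by nonsense-mediated decay once ribosomes meet its early stop codons, and several hosts, GAS5 and SNHG1 among them, start with a pyrimidine tract like that of ribosomal protein mRNAs, which ties their translation, and so their decay, to growth signals.

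The annotated starts of the hosts are shown because this tract is the feature that the family is known for. Letters run 5′ to 3′ on the strand of the gene and come from RefSeq (GRCh38.p14), from 50 bases before to 50 bases after the annotated start, with the longest run of C and T that begins within 10 bases of that start in capitals. These positions are on GRCh38, whereas the reads were mapped to hg19 according to the submitters' processing notes.
SNHG1, chr11:62855836-62855935, minus strand: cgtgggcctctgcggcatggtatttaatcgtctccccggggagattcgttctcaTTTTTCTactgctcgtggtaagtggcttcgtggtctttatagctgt
SNHG5, chr6:85678684-85678783, minus strand: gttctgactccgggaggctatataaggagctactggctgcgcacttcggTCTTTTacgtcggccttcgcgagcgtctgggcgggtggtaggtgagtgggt
SNHG8, chr4:118278712-118278811, plus strand: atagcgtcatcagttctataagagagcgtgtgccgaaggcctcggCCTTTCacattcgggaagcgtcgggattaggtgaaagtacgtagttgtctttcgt
SNHG12, chr1:28581824-28581923, minus strand: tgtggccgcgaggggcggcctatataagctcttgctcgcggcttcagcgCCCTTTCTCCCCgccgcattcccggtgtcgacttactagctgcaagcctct
The runs were 7, 6, 6 and 12 bases long. A run of at least 6 bases stood at this place in 24.7% of 35116 RefSeq windows of all genes, so the run by itself is common, and 1 MALAT1 window also had a run, of 11 bases. The GAS5 window of RefSeq lies further upstream and had no such run, so the first 29 bases of a GENCODE transcript that starts downstream are given in its place, with the pyrimidines at its 5′ end in capitals. Of the 29 GAS5 transcripts annotated, 5 began at a T of this run. They need not begin at its first base, so the length of the run can differ between them.
GAS5, chr1:173867960-173867988, minus strand, GRCh38: TTTTCgaggtaggagtcgactcctgtgag
The motif TATATAA, searched on both strands, was in the windows of SNHG5 and SNHG12 and in 2.57% of all windows. RefSeq windows were given for 8 of the 10 genes.

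The deposited values are rLog values on a log2 scale, which DESeq2 makes from counts after correction for library size and which shrink differences, most of all those of genes with few reads. All differences below are log2 differences of rLog values, given with their standard error (SE) and with an adjusted p-value from one limma fit of the 7 groups. The table holds no counts, so the depth of the libraries is unknown. TruSeq Stranded mRNA libraries select RNA with a poly(A) tail, which MALAT1 and the long form of NEAT1 lack in its usual form, so their values can reflect a part of these RNAs only. In bulk RNA, more RNA per cell and more cells that contain it cannot be told apart. Replicate 2 of H2O2 at 8 h stood apart from its group. Its mean distance to the other replicates was 14.9 over all varying genes, against 11.4 between these, and for 9 of the 10 noncoding RNAs it was the replicate nearest to the untreated mean, so the differences of the 10 RNAs from untreated cells at 8 h are also given without it. Of the duct markers, KRT18 lay between 11.4 and 11.9 and KRT7 between 6.61 and 7.17, while KRT19 lay between 0.58 and 0.73 and EPCAM between -1.77 and -1.74. The mesenchymal marker VIM lay between 16.8 and 17.2, and PRSS1, CELA3A, INS and CD3E, markers of acinar, endocrine and immune cells, were listed at 0 in every library. Other markers of these lists were not at 0. The immune marker CD68 lay between 9.93 and 10.57 and rose by 0.52 in NCS at 24 h, while PTPRC lay between 0.89 and 0.98 and CD14 between 2.48 and 2.68. The acinar marker CTRB1 lay between 0.45 and 0.68. In any comparison with untreated cells, at most 3 of 10 duct markers rose and at most 2 fell, at most 1 marker each of acinar, endocrine and immune cells rose, and at most 2 of 4 endothelial markers rose. Of all genes, between 7.47% and 26.2% rose and between 9.72% and 19.9% fell in these comparisons. The 30.0% of duct markers that rose in H2O2 at 4 h and at 24 h stood beside 26.2% and 20.2% of all genes. Of 7 progenitor and mesenchymal markers 4, 5 and 7 fell in H2O2 at 4, 8 and 24 h and 2 rose at 4 h, VIM by 0.17 and ACTA2 by 0.13, while in NCS 1 rose at 4 h, and 3 rose and 1 fell at 24 h. These falls in H2O2 were 57.1%, 71.4% and 100% of the list, beside 19.7%, 18.6% and 19.9% of all genes. The 28.6% that rose in H2O2 at 4 h was near the 26.2% of all genes. In NCS 14.3% rose at 4 h, beside 7.47%, and 42.9% rose and 14.3% fell at 24 h, beside 19.6% and 18.4%. The part of these cells in the results was not tested.

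Most of the 10 RNAs were higher after either agent. In H2O2, 8 rose and 1 fell at 4 h, 7 rose and 3 fell at 8 h, and 6 rose and 1 fell at 24 h. Of all genes tested, 26.2% rose and 19.7% fell at 4 h, 18.8% and 18.6% at 8 h, then 20.2% and 19.9% at 24 h. In NCS, 5 rose and 1 fell at 4 h, 7 rose at 8 h, and 6 rose and 1 fell at 24 h, beside 7.47% of all genes that rose and 9.72% that fell at 4 h, 10.5% and 13.3% at 8 h, then 19.6% and 18.4% at 24 h. No RNA fell in NCS at 8 h by limma's adjusted p, and 2 did at an unadjusted p under 0.05. These 6 comparisons share the untreated libraries. The median difference over the 10 RNAs was 0.24, 0.39 and 0.32 in H2O2 and 0.14, 0.18 and 0.22 in NCS in order of time, while the median over all genes lay within 0.01 of 0. At an absolute log2 difference over 1 none was called by limma in any comparison with untreated cells or between the agents, with the unadjusted p-value as well, since their differences did not exceed 0.77. That rule called 0.696%, 0.518% and 1.61% of all genes in H2O2 at 4, 8 and 24 h, 0.218%, 0.340% and 1.50% in NCS, and 0.574%, 0.162% and 0.0152% between H2O2 and NCS. Across the 7 groups the highest and lowest group mean differed by 0.42 for SNHG12 up to 1.03 for SNHG1, and by a median of 0.24 over all genes.

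**Figure D1:**
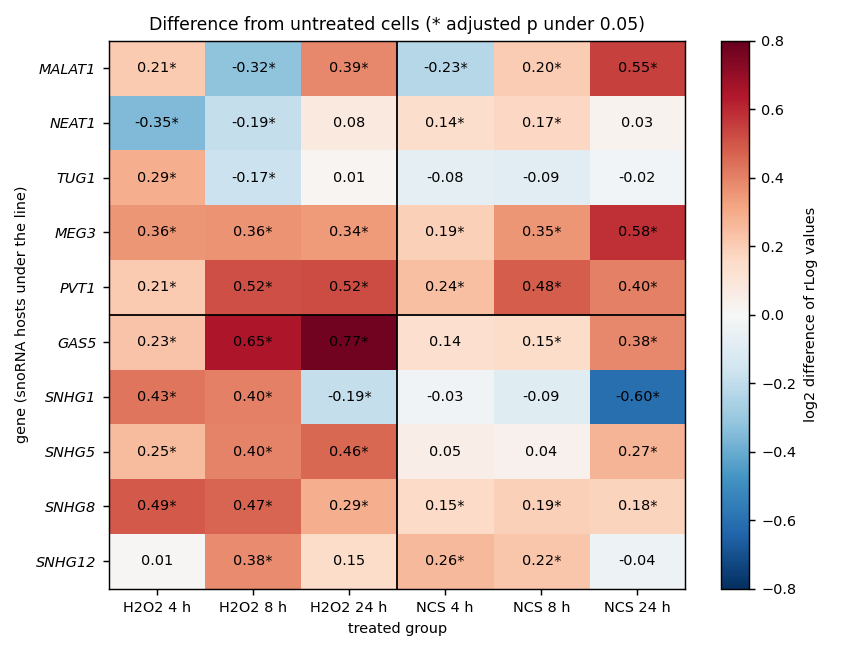
Log2 difference of rLog values from untreated cells (colour and number) for the 10 noncoding RNAs (rows, snoRNA hosts under the line) in the 6 treated groups (columns), with asterisks at a limma adjusted p-value under 0.05. MEG3, PVT1 and SNHG8 rose in all 6 groups, NEAT1 was lower in H2O2 at 4 and 8 h but higher in NCS, and SNHG1 had the deepest fall, in NCS at 24 h.

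**Figure D2:**
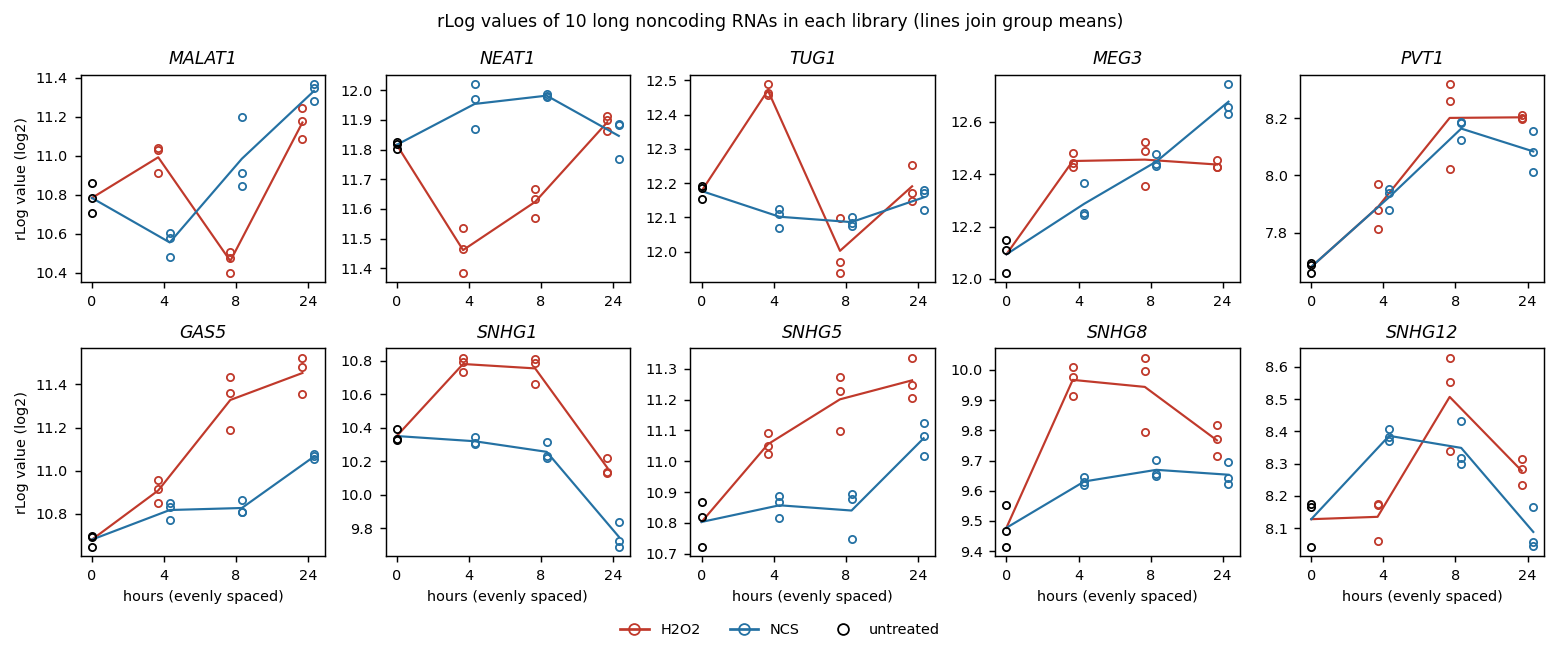
rLog values (log2, vertical axis, a separate scale in each panel) of the 10 noncoding RNAs in each of 21 libraries (points) against hours (evenly spaced, 0 for untreated cells), with lines through the group means for H2O2 and NCS. The H2O2 and NCS libraries of NEAT1 and of SNHG1 are apart at 4 and 8 h, and those of NEAT1 overlap again at 24 h.

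NEAT1 (chr11:65422774-65445540, plus strand, GRCh38 by GENCODE v29, a lincRNA whose longest annotated transcript is a single exon of 22743 bases) moved in opposite directions in H2O2 and in NCS at 4 and 8 h. Its values in untreated cells were 11.80, 11.82 and 11.83. In H2O2 they were 11.53, 11.39 and 11.46 at 4 h, 11.67, 11.57 and 11.63 at 8 h, then 11.90, 11.86 and 11.91 at 24 h. Every H2O2 library at 4 and 8 h was under the lowest untreated library, by a difference of -0.35 (SE 0.04, adjusted p = 8.98e-07) at 4 h and -0.19 (SE 0.04, adjusted p = 0.000805) at 8 h. Without the replicate that stood apart the 8 h difference was -0.16 (adjusted p = 0.00537). At 24 h all 3 H2O2 libraries were over the untreated ones by 0.08 on average, which did not pass (adjusted p = 0.158) but did with quantile normalization (0.12, adjusted p = 0.0285) and with the compared groups alone (adjusted p = 0.0229).
In NCS the NEAT1 values were 11.87, 12.02 and 11.97 at 4 h, 11.99, 11.98 and 11.98 at 8 h, then 11.77, 11.88 and 11.89 at 24 h. The libraries at 4 and 8 h were all over the untreated range, and those at 24 h were on both sides of it. The rises came to 0.14 (SE 0.04, adjusted p = 0.0228) at 4 h, then 0.17 (SE 0.04, adjusted p = 0.00467) at 8 h. The first of these lost its call without any 1 of 4 libraries, untreated replicates 1 and 2 and NCS replicates 2 and 3 at 4 h, with adjusted p-values of 0.0767, 0.0539, 0.133 and 0.0727.

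MALAT1 (chr11:65497688-65506516, plus strand, a lincRNA downstream of NEAT1 on the same strand) went up and down with time, in a different order in H2O2 and in NCS. Untreated libraries were at 10.86, 10.79 and 10.71. In H2O2 the values were 11.03, 10.91 and 11.04 at 4 h, 10.48, 10.51 and 10.40 at 8 h, then 11.18, 11.25 and 11.09 at 24 h. The H2O2 libraries were thus over the untreated range at 4 h, under it at 8 h and over it again at 24 h. These differences amounted to 0.21 (SE 0.07, adjusted p = 0.0199), -0.32 (SE 0.07, adjusted p = 0.00103) and 0.39 (SE 0.07, adjusted p = 0.000152), and at 8 h -0.35 (adjusted p = 0.0018) without the replicate that stood apart. The call at 4 h was lost without untreated replicate 3, H2O2 replicate 1 or H2O2 replicate 3, with adjusted p-values of 0.0901, 0.0641 and 0.0711.
In NCS, MALAT1 was at 10.48, 10.61 and 10.58 at 4 h, at 10.91, 11.20 and 10.85 at 8 h, then at 11.28, 11.35 and 11.37 at 24 h. It was under the untreated range at 4 h, overlapped it at 8 h and was well over it at 24 h. The fall at 4 h (-0.23, SE 0.07, adjusted p = 0.0289) and the rise at 8 h (0.20, SE 0.07, adjusted p = 0.0432) were near the threshold, while the rise at 24 h was 0.55 (SE 0.07, adjusted p = 3.05e-06). At 4 h the call was lost without untreated replicates 1 or 2 or NCS replicates 1 or 3 (adjusted p of 0.137, 0.0688, 0.131 and 0.0549), and at 8 h without untreated replicates 2 or 3 or NCS replicate 2 (0.0903, 0.17 and 0.286), the last of which left a difference of 0.10.

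TUG1 (chr22:30969245-30979395, plus strand) starts 947 bases from the start of MORC2 on the opposite strand and is annotated as a bidirectional promoter noncoding RNA. In H2O2 it rose at 4 h and fell at 8 h. Its untreated values were 12.19, 12.15 and 12.19, and in H2O2 it was at 12.46, 12.49 and 12.46 at 4 h, 11.97, 12.10 and 11.94 at 8 h, then 12.17, 12.15 and 12.25 at 24 h. The 3 libraries at 4 h were all over the untreated ones (0.29, SE 0.03, adjusted p = 8.94e-07), those at 8 h were all under them (-0.17, SE 0.03, adjusted p = 0.000341, and -0.22 without the replicate that stood apart), and those at 24 h overlapped them. In NCS the libraries lay between 12.07 and 12.18 at the 3 times, with differences of -0.08, -0.09 and -0.02 that did not pass (adjusted p = 0.151, 0.0582 and 0.777). All libraries of NCS at 4 and 8 h were under the untreated range, and with library medians aligned these falls passed (-0.09 with an adjusted p of 0.0453, and -0.11 with 0.00445).

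MEG3 (chr14:100779410-100861031, plus strand, the maternally expressed lincRNA of the DLK1 region) was higher in every treated group. Because the MEG3 promoter is known for a cAMP response element, the stretch that holds its core letters is shown in RefSeq's reading, from 50 bases before the letters TGACGTCA, in capitals, to 50 bases after the most upstream of 3 annotated starts.
MEG3, chr14:100826008-100826157, plus strand, GRCh38.p14: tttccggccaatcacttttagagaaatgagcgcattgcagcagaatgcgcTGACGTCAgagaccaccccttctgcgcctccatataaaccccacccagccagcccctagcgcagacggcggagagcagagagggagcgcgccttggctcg
Those letters, which read the same on both strands, were in 1.85% of all RefSeq windows and in none of the windows of the other members. The match says nothing about binding in these cells.
Untreated MEG3 values were 12.02, 12.11 and 12.15. In H2O2 they were 12.48, 12.44 and 12.43 at 4 h, 12.49, 12.35 and 12.52 at 8 h, then 12.46, 12.43 and 12.43 at 24 h. The rise was in place at 4 h, with differences of 0.36, 0.36 and 0.34 (SE 0.04 each, adjusted p = 1.77e-06, 1.82e-06 and 2.2e-06), and 0.41 at 8 h without the replicate that stood apart. From 4 to 24 h in H2O2 the change was -0.01 (SE 0.04, adjusted p = 0.81).
In NCS, MEG3 was at 12.24, 12.37 and 12.25 at 4 h, 12.44, 12.43 and 12.48 at 8 h, then 12.63, 12.66 and 12.74 at 24 h. None of these libraries overlapped the untreated ones, and those of 4 and 24 h did not overlap each other. The differences from untreated cells were 0.19 (SE 0.04, adjusted p = 0.00328), 0.35 (SE 0.04, adjusted p = 4.3e-06) and 0.58 (SE 0.04, adjusted p = 2e-09), and from 4 to 24 h the rise was 0.39 (adjusted p = 5.16e-07). DLK1, the paternally expressed coding gene of the region, lay between -2.18 and -2.17 in all libraries, near the lowest value in the table.

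PVT1 (chr8:127794533-128101253, plus strand) spans 306721 bases, and 4 miRNA genes of RefSeq lie inside it. It was over the untreated range in all 18 treated libraries. Untreated cells were at 7.66, 7.69 and 7.70. In H2O2 the values were 7.81, 7.88 and 7.97 at 4 h, 8.32, 8.02 and 8.26 at 8 h, then 8.20, 8.21 and 8.20 at 24 h. In NCS they were 7.94, 7.88 and 7.95, then 8.12, 8.18 and 8.19, then 8.01, 8.08 and 8.16. In both treatments PVT1 was thus slightly over untreated cells at 4 h and further over them at 8 h. The differences were 0.21, 0.52 and 0.52 in H2O2 (SE 0.06 each, adjusted p = 0.00712, 1.05e-06 and 6e-07) and 0.24, 0.48 and 0.40 in NCS (SE 0.06 each, adjusted p = 0.00634, 4.66e-06 and 1.58e-05). Without the H2O2 replicate that stood apart, the difference at 8 h was 0.61.

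GAS5 (chr1:173863900-173868882, minus strand), named for its rise in growth-arrested cells and host to 11 snoRNAs of RefSeq, had the largest rise of the 10 RNAs. Its untreated values were 10.65, 10.69 and 10.70. In H2O2 it was at 10.92, 10.85 and 10.96 at 4 h, 11.36, 11.19 and 11.44 at 8 h, then 11.36, 11.48 and 11.52 at 24 h. All H2O2 libraries were over the untreated ones, with differences of 0.23 (SE 0.05, adjusted p = 0.000986), 0.65 (adjusted p = 1.1e-08) and 0.77 (adjusted p = 2.83e-10), and the value at 8 h was 0.72 without the replicate that stood apart.
In NCS, GAS5 was at 10.85, 10.83 and 10.77 at 4 h, 10.81, 10.81 and 10.87 at 8 h, then 11.05, 11.07 and 11.08 at 24 h. These libraries too were all over the untreated range. A mean excess of 0.14 was not significant at 4 h (SE 0.05, adjusted p = 0.0693), that of 0.15 passed narrowly at 8 h (SE 0.05, adjusted p = 0.039), and that of 0.38 at 24 h passed (SE 0.05, adjusted p = 3.93e-06). The call at 8 h was lost whichever 1 of the 6 libraries was left out, with adjusted p-values up to 0.137.

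SNHG1 (chr11:62851988-62855914, minus strand, host to a series of C/D box snoRNAs) rose early in H2O2 and fell late in both treatments. It was at 10.33, 10.33 and 10.40 in untreated cells. In H2O2 its values were 10.73, 10.82 and 10.80 at 4 h, 10.79, 10.66 and 10.81 at 8 h, then 10.14, 10.13 and 10.22 at 24 h. Early libraries were all over the untreated range and late ones all under it, with differences of 0.43 (SE 0.04, adjusted p = 1.84e-07), 0.40 (SE 0.04, adjusted p = 5.22e-07) and -0.19 (SE 0.04, adjusted p = 0.00139). Without the replicate that stood apart the difference at 8 h was 0.45.
In NCS, SNHG1 was at 10.31, 10.35 and 10.31 at 4 h, then at 10.22, 10.23 and 10.32 at 8 h, differences of -0.03 and -0.09 that did not pass (adjusted p = 0.794 and 0.135), although the libraries at 8 h were just under the untreated range. At 24 h the NCS libraries were at 9.69, 9.72 and 9.84, the lowest of all 21 libraries, and the difference was -0.60 (SE 0.04, adjusted p = 1.36e-09).

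SNHG5 (chr6:85660950-85678748, minus strand), host to SNORD50A and SNORD50B, was at 10.82, 10.72 and 10.87 in untreated cells. In H2O2 its values were 11.05, 11.09 and 11.02 at 4 h, 11.23, 11.10 and 11.27 at 8 h, then 11.21, 11.25 and 11.34 at 24 h, every one over the untreated range. The differences were 0.25 (SE 0.05, adjusted p = 0.00036), 0.40 (SE 0.05, adjusted p = 3.26e-06, or 0.45 without the replicate that stood apart) and 0.46 (SE 0.05, adjusted p = 3.34e-07). In NCS it was at 10.87, 10.82 and 10.89 at 4 h and 10.75, 10.88 and 10.89 at 8 h, which overlapped untreated cells (0.05 and 0.04, adjusted p = 0.597 and 0.744). By 24 h the NCS libraries were at 11.08, 11.02 and 11.13, over the untreated range, with a rise of 0.27 (SE 0.05, adjusted p = 0.00018).

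SNHG8 (chr4:118278709-118279823, plus strand) is the shortest of the genes, at 1115 bases, and holds SNORA24 in an intron. It was at 9.42, 9.47 and 9.55 in untreated cells and over that range in all treated libraries. In H2O2 its values were 9.91, 10.01 and 9.98 at 4 h, 10.00, 9.79 and 10.04 at 8 h, then 9.71, 9.82 and 9.77 at 24 h, so it was highest early. The rises were 0.49 (SE 0.05, adjusted p = 2.42e-07), 0.47 (SE 0.05, adjusted p = 5.81e-07, or 0.54 without the replicate that stood apart) and 0.29 (SE 0.05, adjusted p = 9.82e-05). In NCS the libraries lay between 9.62 and 9.70 at the 3 times. These rises were 0.15 (SE 0.05, adjusted p = 0.0412), 0.19 (SE 0.05, adjusted p = 0.00766) and 0.18 (SE 0.05, adjusted p = 0.00837). The call at 4 h was lost with 5 of the 6 libraries left out in turn, all but untreated replicate 3, with adjusted p-values between 0.0832 and 0.187.

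SNHG12 (chr1:28578538-28583132, minus strand), which carries 4 snoRNAs, was at 8.18, 8.16 and 8.04 in untreated cells and differed in its timing from the other hosts. In H2O2 it was at 8.17, 8.06 and 8.17 at 4 h, inside the untreated range (0.01, SE 0.06, adjusted p = 0.972), and then at 8.55, 8.34 and 8.63 at 8 h, then 8.24, 8.28 and 8.31 at 24 h. The rise at 8 h was 0.38 (SE 0.06, adjusted p = 5.85e-05, or 0.46 without the replicate that stood apart), and the 0.15 at 24 h did not pass (adjusted p = 0.0596). In NCS it was at 8.37, 8.38 and 8.41 at 4 h, 8.43, 8.30 and 8.32 at 8 h, then 8.06, 8.16 and 8.04 at 24 h. Its NCS libraries were over the untreated range at 4 h (0.26, SE 0.06, adjusted p = 0.00537), still so at 8 h (0.22, SE 0.06, adjusted p = 0.0113), and overlapped it at 24 h (-0.04, adjusted p = 0.726). The call at 8 h was lost without untreated replicate 3 (adjusted p = 0.0656) or NCS replicate 1 (adjusted p = 0.0663).

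The counts of calls in NCS moved with single libraries. At 4 h they fell from 6 to 3 without untreated replicate 1, untreated replicate 2 or NCS replicate 3, and at 8 h from 7 to 4 without untreated replicate 3.

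Set against NCS at the same hour, hosts were mostly higher in H2O2, while the nuclear RNAs went both ways. At 4 h, 6 of the 10 RNAs were higher in H2O2 and 2 lower, beside 26.3% and 18.0% of all genes. At 8 h the numbers were 4 and 2, beside 18.7% and 15.4%, and at 24 h 4 and 1, beside 11.0% and 10.9%. SNHG1 differed by 0.46, 0.50 and 0.41 at 4, 8 and 24 h (SE 0.04 each, adjusted p = 7.66e-08, 8.39e-08 and 1.08e-06), and its H2O2 and NCS libraries did not overlap at any hour. SNHG5 was also higher in H2O2 at every hour, by 0.20, 0.36 and 0.19 (SE 0.05 each, adjusted p = 0.00298, 1.42e-05 and 0.00931). The 3 H2O2 libraries of GAS5 lay just over those of NCS at 4 h without passing (0.09, SE 0.05, adjusted p = 0.155), and GAS5 then exceeded its NCS level by 0.50 at 8 h (adjusted p = 4.13e-07), followed by 0.39 at 24 h (adjusted p = 1.27e-05). SNHG8 was higher by 0.34 at 4 h (adjusted p = 2.19e-05), by 0.27 at 8 h (adjusted p = 0.000269), and by 0.11, short of the threshold, at 24 h (SE 0.05, adjusted p = 0.125). SNHG12 was the host that was lower in H2O2 at 4 h, by -0.25 (SE 0.06, adjusted p = 0.00245), and not separated at 8 h (0.16, SE 0.06, adjusted p = 0.0532), but ended higher at 24 h (0.19, SE 0.06, adjusted p = 0.0319).

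**Figure D3:**
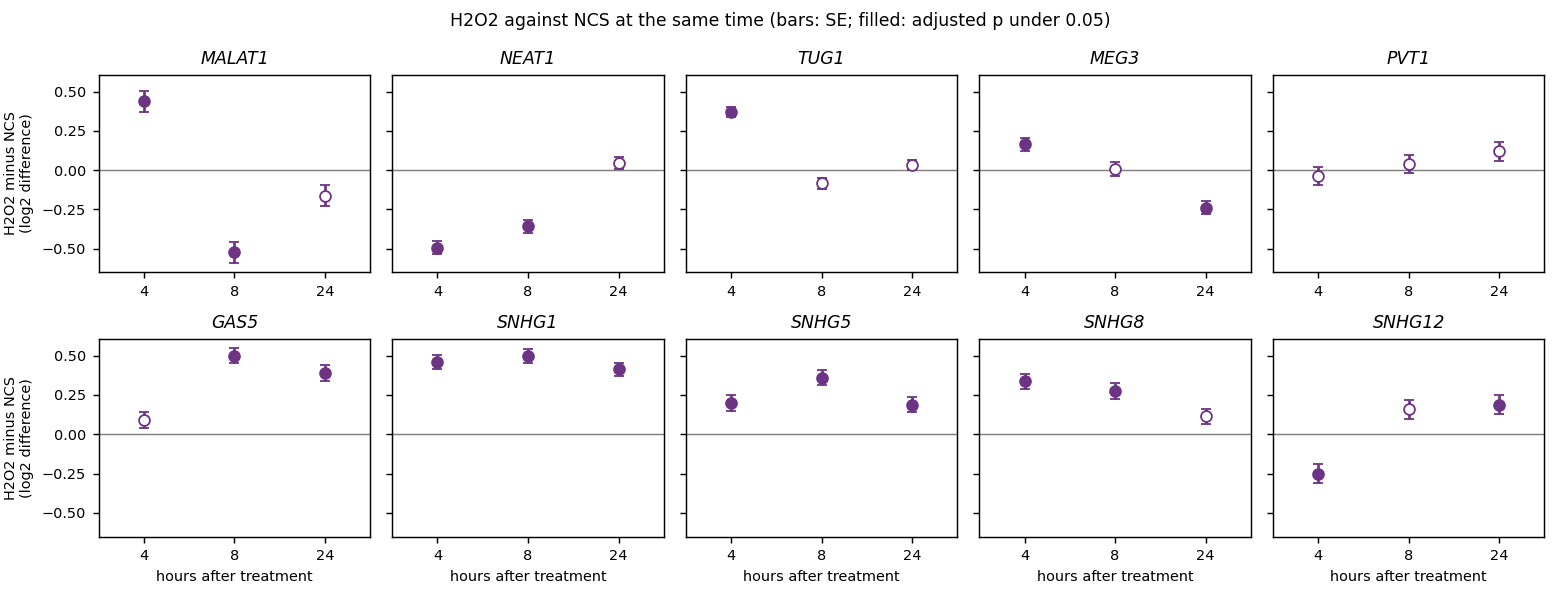
Difference of H2O2 minus NCS (log2, vertical axis, bars are SE, 3 libraries a group) at 4, 8 and 24 h for each of the 10 noncoding RNAs, filled where the limma adjusted p-value was under 0.05. SNHG1 and SNHG5 stay over 0, NEAT1 starts at -0.49 and ends near 0, and MALAT1 changes sign between 4 and 8 h.

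NEAT1 was lower in H2O2 than in NCS, with -0.49 at 4 h (SE 0.04, adjusted p = 1.44e-08), then -0.36 at 8 h (adjusted p = 1.69e-06), whereas the groups overlapped at 24 h (0.05, SE 0.04, adjusted p = 0.521). For MALAT1 the difference was 0.44 at 4 h (SE 0.07, adjusted p = 4.75e-05), turned to -0.52 at 8 h (adjusted p = 1.05e-05), and was -0.16 at 24 h (adjusted p = 0.116). TUG1 was higher by 0.37 at 4 h (SE 0.03, adjusted p = 5.31e-08) and then differed by -0.08 and 0.03 (adjusted p = 0.0607 and 0.605). MEG3 was higher in H2O2 at 4 h (0.16, SE 0.04, adjusted p = 0.00433), not separated at 8 h (0.01, SE 0.04, adjusted p = 0.954) and lower at 24 h (-0.24, SE 0.04, adjusted p = 0.000398). For PVT1 the differences were -0.04, 0.04 and 0.12 (SE 0.06 each) with adjusted p-values of 0.672, 0.715 and 0.178.

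The count at 8 h depended on the replicate that stood apart. Without it, TUG1 (-0.13, adjusted p = 0.000984), PVT1 (0.13, adjusted p = 0.0406) and SNHG12 (0.24, adjusted p = 0.00136) passed too, and 9 of the 10 RNAs differed, 6 higher and 3 lower, while 20.0% and 16.0% of all genes were called in that fit. The called differences of GAS5, SNHG1, SNHG5 and SNHG8 were then 0.57, 0.54, 0.41 and 0.35, and those of MALAT1 and NEAT1 were -0.55 and -0.33. SNHG12 also passed without NCS replicate 1 (0.20, adjusted p = 0.0301). At 24 h the count fell from 5 to 3 without H2O2 replicate 3, where SNHG5 had an adjusted p of 0.0585 and SNHG12 of 0.105. The SNHG5 call was also lost without NCS replicate 2 (adjusted p = 0.0525), and the SNHG12 call without H2O2 replicate 2, NCS replicate 1 or NCS replicate 3 (adjusted p of 0.082, 0.105 and 0.111).

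From 4 to 24 h, GAS5, SNHG5, PVT1 and MALAT1 rose and SNHG1 fell within each treatment. In H2O2, 5 of the RNAs rose over this time and 3 fell, beside 23.1% and 32.4% of all genes, and in NCS 5 rose and 3 fell, beside 19.5% and 18.8%. SNHG1 fell by 0.62 under H2O2 (adjusted p = 6.12e-10) while under NCS it fell by 0.57 (adjusted p = 3.42e-09). NEAT1 rose by 0.43 in H2O2 (adjusted p = 3.61e-08) and was lower by -0.11 in NCS (adjusted p = 0.0421), a call lost without NCS replicates 2 or 3 at 4 h or NCS replicate 1 at 24 h (adjusted p of 0.218, 0.114 and 0.238), and -0.07 was left without the last of these. The rise of MALAT1 in H2O2 (0.18, adjusted p = 0.0372) was lost without H2O2 replicate 2 at 4 h (adjusted p = 0.149) or H2O2 replicates 1 or 2 at 24 h (0.0794 and 0.146), while that in NCS was 0.78 (adjusted p = 3.65e-08). PVT1 rose by 0.31 under H2O2 (adjusted p = 0.000152), while its rise of 0.16 under NCS (adjusted p = 0.0381) was lost with 5 of 6 libraries left out in turn, all but NCS replicate 1 at 24 h (adjusted p between 0.0538 and 0.164). GAS5 rose by 0.54 under H2O2 and 0.25 under NCS (adjusted p = 2.71e-08 and 0.000494), and SNHG5 by 0.21 and 0.22 (adjusted p = 0.00147 and 0.00145). TUG1 and SNHG8 fell under H2O2, by 0.28 and 0.20 (adjusted p = 8.54e-07 and 0.00218), and SNHG12 fell under NCS by 0.30 (adjusted p = 0.000573).

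The difference between the agents itself changed between 4 and 24 h. This change was upward for 3 of the RNAs and downward for 4, beside 16.6% and 22.7% of all genes. It was upward for NEAT1 (0.54, SE 0.06, adjusted p = 7.15e-07), SNHG12 (0.44, SE 0.09, adjusted p = 0.000494) and GAS5 (0.30, SE 0.07, adjusted p = 0.0025). It was downward for MALAT1 (-0.60, SE 0.10, adjusted p = 9.23e-05), MEG3 (-0.40, SE 0.06, adjusted p = 3.63e-05), TUG1 (-0.34, SE 0.05, adjusted p = 1.75e-05) and SNHG8 (-0.22, SE 0.07, adjusted p = 0.0177). For SNHG1 it was -0.05 (SE 0.06, adjusted p = 0.56), for SNHG5 -0.01 (SE 0.07, adjusted p = 0.918) and for PVT1 0.15 (SE 0.08, adjusted p = 0.153).

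Other noncoding snoRNA hosts of the table rose at 4 h in H2O2. Of 23 such genes listed by hand 13 were in the table, and 13 of 13 rose in H2O2 at 4 h (median 0.35), 9 rose at 8 h (median 0.34, or 0.36 with 9 called without the replicate that stood apart), and 4 rose and 3 fell at 24 h. In NCS 1 fell at 4 h, 1 rose and 3 fell at 8 h, and 2 rose and 5 fell at 24 h. All rose in H2O2 at 4 h, beside 26.2% of all genes, and 69.2% at 8 h, beside 18.8%. At 24 h in H2O2 30.8% rose and 23.1% fell, beside 20.2% and 19.9%. In NCS 7.69% fell at 4 h, beside 9.72%, while 7.69% rose and 23.1% fell at 8 h, beside 10.5% and 13.3%. At 24 h in NCS 15.4% rose and 38.5% fell, beside 19.6% and 18.4%. Falls in NCS at 4 h and H2O2 at 24 h, and rises in NCS at 8 and 24 h, were near the all-gene shares. Against NCS, 11 of the 13 were higher in H2O2 at 4 h, 10 at 8 h and 6 at 24 h, or 84.6%, 76.9% and 46.2%. Of all genes 26.3%, 18.7% and 11.0% were higher in H2O2 at these hours. SNHG10 had the largest rise, 0.91 in H2O2 at 4 h (adjusted p = 2.7e-09), followed at that hour by SNHG7 (0.65, adjusted p = 2.01e-07). SNHG3 rose by 0.35 in H2O2 at 4 h and then fell to -0.65 in H2O2 and -0.71 in NCS at 24 h (adjusted p = 1.8e-09 and 6.25e-10), like SNHG1 early up in H2O2 and late down with both agents.

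**Figure D4:**
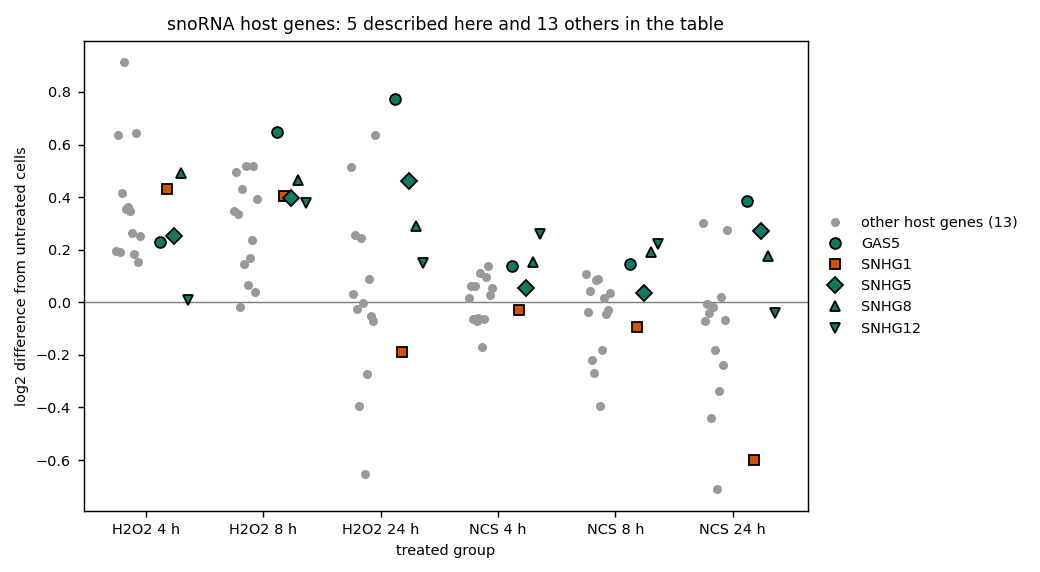
Log2 difference from untreated cells (vertical axis) of the 5 snoRNA hosts described here (coloured symbols) and of 13 other noncoding hosts (grey points) in the 6 treated groups. At 4 h in H2O2 all 13 grey points lie over 0, and at 24 h the points spread to both sides, with SNHG1 under 0 in both treatments.

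Rows for the snoRNAs inside the hosts were called upward or downward depending on the hour. The libraries select poly(A) RNA, so these rows can hold reads of unspliced host RNA, which were not separated. Of 25 intronic snoRNAs of the 5 hosts, 5 rose in H2O2 at 8 h (median 0.09), 6 rose in NCS at 4 h (median 0.07), and 7 fell in H2O2 and 5 in NCS at 24 h. These are 20.0%, 24.0%, 28.0% and 20.0% of the list, beside 18.8%, 7.47%, 19.9% and 18.4% of all genes, so that at 8 h in H2O2 and at 24 h in NCS the share was near that of all genes. Those of SNHG1 went down with their host at 24 h, 5 of 8 in H2O2 (median -0.17) and 5 of 8 in NCS (median -0.15), SNORD31 by -0.34 in H2O2 (adjusted p = 0.000149). Of 10 in GAS5, none passed at 24 h in either treatment with limma (1 was lower in H2O2 at an unadjusted p under 0.05, and 0 in NCS), the medians being -0.02 in H2O2 and -0.03 in NCS, although the host rose by 0.77 and 0.38. Group means of these snoRNA rows ran from 0.37 (SNORD75, untreated) to 7.42 (SNORD80, H2O2 at 8 h), under the 10.7 to 11.5 of GAS5. rLog values shrink differences most in rows with few reads, and the part of this in the contrast was not tested. The GAS5 snoRNA SNORD80 rose in H2O2 at 8 h (0.51, adjusted p = 0.000159), as did SNORD50B of SNHG5 (0.35, adjusted p = 1.98e-05). In H2O2 against NCS at 4 h, 8 of the 25 were lower in H2O2 (32.0%, beside 18.0% of all genes), 4 of them in GAS5. From 4 to 24 h 15 of the 25 fell in NCS (60.0%, beside 18.8% of all genes) and 7 fell in H2O2 (28.0%, beside 32.4%).

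mRNAs for the proteins that work with these RNAs fell late. Of 18 paraspeckle proteins, which bind NEAT1, 4 rose and 4 fell in H2O2 at 4 h, 14 fell at 8 h and 18 fell at 24 h (median -0.32), and in NCS 6 fell at 4 h, 12 at 8 h and 17 at 24 h (median -0.35), with 1 that rose in H2O2 at 8 h and 1 at each hour of NCS. In H2O2 at 4 h 22.2% of this list rose and 22.2% fell, near the 26.2% and 19.7% of all genes. The share that fell was then 77.8% and 100% at 8 and 24 h, beside 18.6% and 19.9%. In NCS it was 33.3%, 66.7% and 94.4% in order of time, beside 9.72%, 13.3% and 18.4%. The 1 that rose was 5.56% of the list, beside 18.8% of all genes in H2O2 at 8 h and 7.47%, 10.5% and 19.6% in NCS. SFPQ, a core protein that NEAT1 needs for paraspeckles, was at -0.63 in both treatments at 24 h (adjusted p = 1.31e-11 in H2O2 and 1.33e-11 in NCS), and RBMX at -0.65 in H2O2 (adjusted p = 4.1e-14). Of 12 proteins of snoRNA particles, 9 fell in H2O2 and 10 in NCS at 24 h, led by FBL, the methylase of C/D box particles (-0.68 in NCS, adjusted p = 4.97e-11), DKC1, the pseudouridine synthase of H/ACA particles (-0.57 in NCS, adjusted p = 1.63e-11), and NOP58 (-0.55 in NCS, adjusted p = 1.2e-09). Those counts are 75.0% and 83.3% of the list, beside 19.9% and 18.4% of all genes. Of 16 nonsense-mediated decay factors, 9 rose in H2O2 at 8 h (median 0.09), among them SMG8 (0.43, adjusted p = 4.08e-06), while 3 rose and 8 fell in H2O2 at 24 h (median -0.08), and in NCS 3 rose and 6 fell at 8 h, and 2 rose and 12 fell at 24 h (median -0.14). In H2O2 56.2% of these factors rose at 8 h, beside 18.8% of all genes. At 24 h in H2O2 50.0% fell, beside 19.9%, and the 18.8% that rose was near the 20.2% of all genes. In NCS 18.8% rose and 37.5% fell at 8 h, beside 10.5% and 13.3%. At 24 h in NCS 12.5% of the decay factors rose and 75.0% fell, beside 19.6% and 18.4%. In that list the exon junction genes MAGOH (-0.44 in NCS, adjusted p = 6.73e-08) and MAGOHB (-0.50 in H2O2, adjusted p = 1.11e-07) had the deepest falls at 24 h.

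Of 25 other long noncoding RNAs linked to p53, imprinting or the nucleus, 18 were tested. In H2O2 8 rose and 1 fell at 4 h, 5 and 1 at 8 h, then 3 and 2 at 24 h, and in NCS 3 rose at 4 h, 2 at 8 h, and 3 rose and 4 fell at 24 h. The share that rose in H2O2 at 4 h was 44.4%, beside 26.2% of all genes, and in NCS at 8 and 24 h the shares that rose were 11.1% and 16.7%, near the 10.5% and 19.6% of all genes. In H2O2 27.8% and 16.7% rose at 8 and 24 h, beside 18.8% and 20.2%, and in NCS 16.7% rose at 4 h, beside 7.47%. The 22.2% that fell in NCS at 24 h was near the 18.4% of all genes. KCNQ1OT1, an imprinted antisense RNA, was 0.72 higher in H2O2 at 4 h (adjusted p = 3.35e-08), and MIR22HG, the host of miR-22, 0.45 higher (adjusted p = 1.04e-09). TP53TG1, named as a p53 target, rose by 0.24, 0.15 and 0.31 in H2O2 and by 0.25, 0.34 and 0.50 in NCS, each past the threshold.

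Of 12 genes beside the noncoding RNAs, 4 rose and 3 fell in H2O2 at 4 h, 5 and 3 at 8 h, then 2 and 5 at 24 h, and in NCS 2 and 2, 2 and 2, and 3 and 5. The share that rose in H2O2 was 33.3%, 41.7% and 16.7% in order of time, beside 26.2%, 18.8% and 20.2% of all genes, and the share that fell was 25.0%, 25.0% and 41.7%, beside 19.7%, 18.6% and 19.9%. In NCS 16.7%, 16.7% and 25.0% rose, beside 7.47%, 10.5% and 19.6% of all genes. The share that fell in NCS was 16.7%, 16.7% and 41.7%, beside 9.72%, 13.3% and 18.4%. Falls at 8 h and rises at 24 h in NCS were near the all-gene shares. SLC3A2, the heavy chain of amino acid transporters, starts 188 bases from SNHG1 on the opposite strand. It rose in H2O2 by 0.79, 1.06 and 0.83 at 4, 8 and 24 h (SE 0.05 each, adjusted p = 6.87e-10, 5.5e-11 and 1.62e-10), and in NCS it was at 0.09, 0.16 and 0.22 (adjusted p = 0.311, 0.0303 and 0.00228). At 24 h SLC3A2 was thus higher and SNHG1 lower than in untreated cells with both agents. MYC, whose start lies 59099 bases from that of PVT1, rose by 0.21 in H2O2 at 4 h (adjusted p = 5.63e-05) but was lower at 24 h (-0.19, adjusted p = 0.000199). In NCS MYC fell, with -0.36, -0.19 and -0.28 at the 3 times (adjusted p = 4.27e-07, 0.000307 and 2.03e-06), while PVT1 rose.
TRNAU1AP, which meets the 3′ end of SNHG12 from the other strand, rose by 0.51 in H2O2 at 4 h (adjusted p = 2e-08), where SNHG12 did not. ZBTB37 starts 800 bases from GAS5 on the opposite strand and overlaps it, and whether reads were counted by strand is not given in the sources used here. It rose by 0.32 in H2O2 at 8 h (adjusted p = 0.000178) and was at 0.09 at 24 h (adjusted p = 0.272). MORC2, beside TUG1, was at -0.11, 0.12 and -0.10 in H2O2 (adjusted p = 0.00921, 0.00747 and 0.0171), opposite in sign to TUG1 at 4 and 8 h. FRMD8, beside NEAT1, was at -0.02 in H2O2 at 4 h (adjusted p = 0.769) and rose by 0.41 at 8 h (adjusted p = 6.57e-06). LTBP3 of that region rose by 0.46 in NCS at 24 h (adjusted p = 9.98e-08). SYNCRIP, beside SNHG5, fell in all 6 treated groups, most in H2O2 at 24 h (-0.40, adjusted p = 1.07e-11). PRSS12, beside SNHG8, fell in H2O2 at the 3 times, to -0.35 at 24 h (adjusted p = 2.43e-09), and WDR74, beside SNHG1, rose by 0.17 in H2O2 at 8 h (adjusted p = 0.000232).

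**Figure D5:**
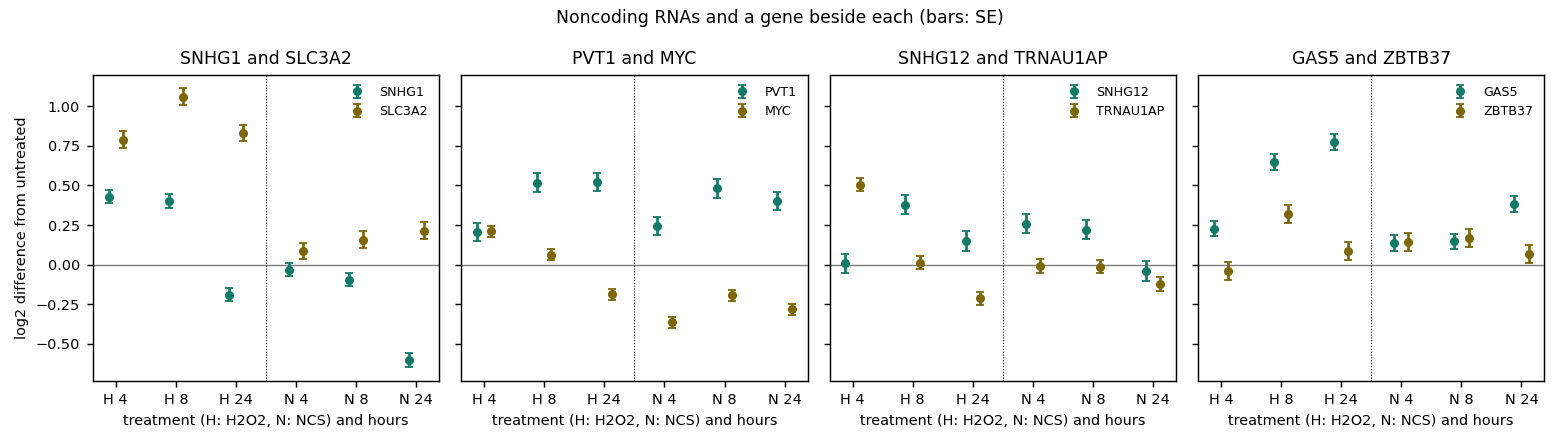
Log2 difference from untreated cells (vertical axis, bars are SE, 3 libraries a group) of SNHG1, PVT1, SNHG12 and GAS5 and of a gene beside each, in H2O2 (H) and NCS (N) at 4, 8 and 24 h. SLC3A2 stays over 0.7 in H2O2 while SNHG1 drops under 0 at 24 h, and PVT1 is over 0 where MYC is under 0 in all 3 NCS groups.

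The genes with the most similar values over the 21 libraries are given by Pearson's r across libraries, which share their treatment and their hour, over 11680 genes with a mean value of at least 5. For GAS5 they were UNC5B (r = 0.98), HAX1 (0.97) and the methionyl-tRNA synthetase MARS (0.97). For SNHG5 they were C17orf76-AS1 (0.97), which RefSeq lists as the snoRNA host SNHG29, the tyrosyl-tRNA synthetase YARS (0.96) and the asparagine synthetase ASNS (0.96). GAS5 and SNHG5 had an r of 0.92 with each other, and of 0.96 over the 7 group means. For SNHG8 they were the translation initiation factor EIF1 (0.96), the ribosomal protein gene RPL6 (0.95) and PPP1R15A (0.93), and for SNHG1 RAE1 (0.97), the glycolytic enzyme ENO1 (0.97) and the initiation factor EIF5 (0.95). NEAT1 was most like DGKQ, TUBGCP6 and HTT (0.94 each), TUG1 like NAB2, PCF11 and ZFC3H1 (0.95 each), MALAT1 like CHURC1 (0.94), BRE (0.92) and TMEM187 (0.91), and MEG3 like IP6K2 (0.92), KIAA0513 (0.90) and TCTA (0.89). PVT1 was most like SRA1 and CSDA (0.94 each) and CERS5 (0.92), and SNHG12 like ZNF195 (0.92), TRIM35 and ZNF441 (0.90 each).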

How the data were processed

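RNA-seq was performed on 21 libraries of hTERT-HPNE cells. The authors aligned reads with HISAT2 at default settings, counted them with htseq-count in Galaxy and deposited log2 values made with the rLog transformation of DESeq2, on hg19 according to the submitters' processing notes. The annotation and the strand setting of the counting are not given in the sources used here. Of 23368 rows, 3674 were at 0 in every library and were left out, which left 19694 rows. The rLog values were used without further normalization and hold no counts, so depth is unknown and no interval or floor was calculated.

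Groups were taken from the labels and compared with limma 3.58.1 in R 4.3.3 (lmFit on 7 groups, eBayes with a mean-variance trend, Benjamini-Hochberg adjustment over all 19694 genes, two-sided), tested on simulated data. For 1 gene, an exact permutation test of 3 libraries against 3 cannot give a p-value below 0.1 and was not used. A gene was called at an adjusted p-value under 0.05, and also with an absolute log2 difference over 1, the limits of the study. The members, lists and tests were chosen with earlier results of these data known, and counts over a list are descriptions. All 10 members and the genes beside them were named, with the 3 largest called differences from untreated cells in each other list and the 3 most similar genes for each member. Some items that this rule names are not reported here. Genes outside these rules were named as markers. Positions came from GENCODE v29 and RefSeq. The fits were repeated after aligning the library medians, after quantile normalization, over genes whose mean was 5 or more, with the compared groups alone, without the trend, at a limit of 0.58, with the replicate number as a block, and with single libraries omitted. The labels number the replicates, which the study describes as biological. Figures were drawn with Python 3.11.15 and matplotlib 3.10.9.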

Additional observations from a re-analysis of the deposited data

Results flagged for a closer look

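For 7 of the 10 RNAs the H2O2 minus NCS difference changed between 4 and 24 h by limma's test of that change. NEAT1 went from -0.49 to 0.05, a change of 0.54 that held with every library left out in turn, and MALAT1 went from 0.44 to -0.16, a change of -0.60. TUG1 changed by -0.34, MEG3 by -0.40 and SNHG8 by -0.22, each with the H2O2 side higher at 4 h. GAS5 changed by 0.30 and SNHG12 by 0.44, each with the H2O2 side relatively higher at 24 h. The number of RNAs called for this change was 7 whichever library of the 4 groups compared was left out.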

How the results depend on the processing

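Of 1500 recalculated values of single RNAs, 1393 kept their direction and their side of the threshold, 57 lost a call, 28 gained one and 22 changed sign, all of the last in differences that had not passed. With library medians aligned, the signs changed for SNHG12 in H2O2 at 4 h (-0.0074) and TUG1 in H2O2 at 24 h (-0.0049), and with quantile normalization for TUG1 (0.0045) and SNHG12 (0.030) in NCS at 24 h, MEG3 between the agents at 8 h (-0.018) and from 4 to 24 h in H2O2 (0.067), and SNHG5 in the change of the difference (0.013). With 1 library left out at a time, SNHG12 in H2O2 at 4 h ranged from -0.035 to 0.045, TUG1 in H2O2 at 24 h from -0.018 to 0.036, SNHG5 in NCS at 8 h from -0.0031 to 0.082 and in the change of the difference from -0.046 to 0.018. Between the agents, MEG3 at 8 h ranged from -0.026 to 0.059, PVT1 at 4 h from -0.077 to 0.0015 and PVT1 at 8 h from -0.022 to 0.13, and MEG3 from 4 to 24 h in H2O2 from -0.024 to 0.0014. Counts of called RNAs ranged from 3 to 6 in NCS at 4 h, from 4 to 6 in NCS at 8 h and from 3 to 5 between the agents at 24 h, where fewer samples were fitted. With a limit of 0.58 in place of 1, the calls were 1 in H2O2 at 8 h, 1 in H2O2 at 24 h and 2 in NCS at 24 h. Over all groups the replicate numbers hardly paired the libraries (mean correlation of deviations 0.027 with the same number and -0.014 with different numbers). Within single comparisons the mean for the same number ranged from -0.063 (NCS at 4 h against untreated cells) to 0.14 (H2O2 against NCS at 8 h, 2 of 3 pairs over 0.1). With the replicate block 1 call was lost, NEAT1 from 4 to 24 h in NCS (-0.11, adjusted p = 0.0515), and no other call changed. The limits of the data are the unknown depth, the shrinkage of rLog values, the single hour of the untreated cells, the poly(A) selection and 3 libraries a group.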
